A study of Mus musculus with 24 samples.

Results

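The response of *Brd9* knockdown (KD) myoblasts to added zinc was measured by RNA-seq in 4 libraries, 2 of untreated cells (NT) and 2 of cells given Zn, chosen by their sample titles out of the 24 libraries of the study. The 2 libraries of the same cells given Cu were fitted with them, so that 6 libraries set the spread, and the 3 other cell lines served to ask whether the response differed between lines. C2C12 is an immortalized line of mouse myoblasts, the dividing precursors of muscle, although the deposited labels call the material primary mouse myoblasts. According to the methods, each KD line stably carried an shRNA delivered by lentivirus and was kept under puromycin, whereas the labels describe a lipofectamine-based KD. The scr line carried a non-targeting shRNA, and the other lines were KD for *Baf180* or *Baf250a*. Brd9 is a bromodomain subunit of ncBAF, Baf180 marks PBAF and Baf250a marks BAF, 3 forms of the mSWI/SNF chromatin remodelling complex. Zn cells grew with 50 µM ZnSO4 and Cu cells with 100 µM CuSO4, each for 48 h, so the metals were not compared at a matched dose. The treatment tag in the labels contradicts the titles for all 6 libraries, and groups follow the titles, which the count table also uses. Each condition had 2 biological replicates.

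Cells meet excess zinc mainly through MTF1, a zinc-finger transcription factor that binds metal response elements (MREs) once zinc fills its fingers. Its classical targets are the metallothioneins, small cysteine-rich proteins that hold zinc and copper, and ZnT1, the plasma membrane exporter encoded by *Slc30a1*. MTF1 is also known to lower *Slc39a10*, which encodes the zinc importer ZIP10. Immediate early genes are transcription factors and phosphatases that respond within minutes to growth factors and stress, and many of them are driven by the serum response factor SRF.

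Brd9 KD libraries held between 12719173 and 28759670 gene counts. *Brd9* itself stood between 13.8 and 17.9 library-size scaled counts (CPM) in the 6 Brd9 KD libraries and between 27.2 and 32.4 CPM in the 6 scr libraries, with no overlap. The 7 myoblast markers were all detected, with *Des* between 1163 and 1374 CPM and *Pax7*, which marks muscle stem cells, between 2.78 and 5.41 CPM. Their summed level was 2348 and 2491 CPM in NT and lay between 2155 and 2329 CPM in Zn. Markers of differentiated muscle summed to between 34.0 and 39.3 CPM over NT and Zn. Of 18 markers of other cell types, 14 stayed under 1 CPM in all 6 libraries and *Epcam* and *Cdh5* were at 0 counts. The 4 exceptions were *Cebpa*, *Cd68*, *Kdr* and *Tubb3*, of which *Tubb3* was the highest at 60.9 to 83.6 CPM. One Cu library, replicate 1, carried 1.11% of its counts in genes linked to ribosomal RNA, against 0.107% to 0.157% in the other 5 libraries.

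Zn changed few genes in Brd9 KD cells. Of 14978 genes tested, 5 passed an adjusted p of 0.05 in edgeR's quasi-likelihood test, or 0.0334%. *Mt2*, *Mt1*, *Slc30a1* and *Egr1* rose and *Slc39a10* fell. Those 5 genes are the metallothionein pair, a zinc exporter, a zinc importer and an immediate early transcription factor. Without NT replicate 1, NT replicate 2 or Zn replicate 2 the count was 3, *Mt2*, *Mt1* and *Slc39a10*. At an unadjusted p under 0.05, 251 genes were higher (1.68%) and 200 were lower (1.34%). The NT and Zn libraries did not overlap, with Zn higher, for 14.2% of genes, and with Zn lower for 12.5%. The median log2 fold change over all genes was 0.0013, so single genes are read against a centre at 0.

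**Figure D1:**
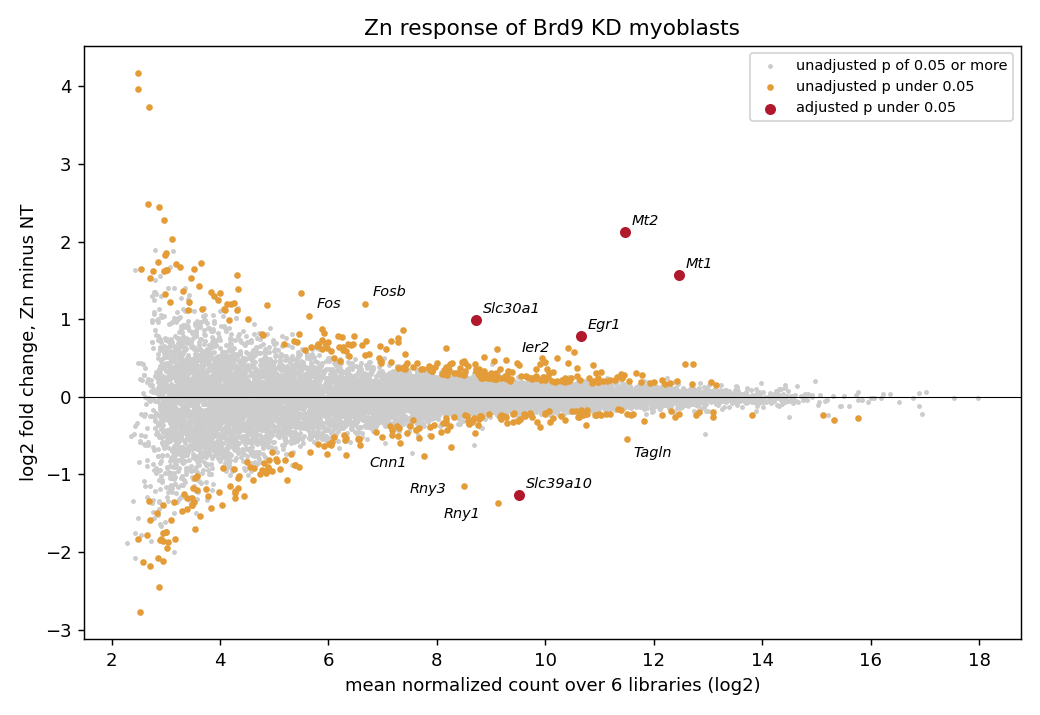
Log2 fold change of Zn over NT (y axis) against the mean normalized count over the 6 Brd9 KD libraries (x axis, log2), 1 point a gene, coloured by the edgeR test. The 5 genes past the adjusted threshold are labelled, as are *Rny1*, *Rny3*, *Fosb*, *Fos*, *Ier2*, *Tagln* and *Cnn1*, which missed it. The points with the widest folds at the left have few counts.

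The promoters of the 4 zinc-handling genes are shown because the known MTF1 element can be looked for in them. Sequences are RefSeq promoters of build GRCm38.p6, from 250 bases before to 50 bases after the gene start, 5′ to 3′ on the gene's strand. Capitals mark the MRE core, searched as TGCACNC and TGCGCNC on both strands.
Mt1, chr8:94178839-94179138, plus strand: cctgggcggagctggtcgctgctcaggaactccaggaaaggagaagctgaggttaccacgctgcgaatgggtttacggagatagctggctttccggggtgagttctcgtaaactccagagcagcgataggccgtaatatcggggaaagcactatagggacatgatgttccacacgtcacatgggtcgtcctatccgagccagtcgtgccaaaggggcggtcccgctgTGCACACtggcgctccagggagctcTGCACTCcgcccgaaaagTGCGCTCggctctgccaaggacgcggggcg
Mt2, chr8:94172368-94172667, plus strand: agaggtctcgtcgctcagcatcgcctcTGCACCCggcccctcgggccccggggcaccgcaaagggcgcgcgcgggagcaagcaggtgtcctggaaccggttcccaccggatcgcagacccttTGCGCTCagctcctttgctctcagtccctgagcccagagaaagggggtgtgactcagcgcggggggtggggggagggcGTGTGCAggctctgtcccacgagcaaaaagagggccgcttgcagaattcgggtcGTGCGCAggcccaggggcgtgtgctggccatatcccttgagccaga
Slc30a1, chr1:191906531-191906830, plus strand: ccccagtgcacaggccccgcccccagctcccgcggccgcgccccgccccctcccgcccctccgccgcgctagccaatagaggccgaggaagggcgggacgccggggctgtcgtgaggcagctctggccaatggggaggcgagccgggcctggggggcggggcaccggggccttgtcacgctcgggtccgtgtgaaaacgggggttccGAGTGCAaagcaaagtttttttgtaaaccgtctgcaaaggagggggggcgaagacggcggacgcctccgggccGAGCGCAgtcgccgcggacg
Slc39a10, chr1:46853569-46853868, minus strand: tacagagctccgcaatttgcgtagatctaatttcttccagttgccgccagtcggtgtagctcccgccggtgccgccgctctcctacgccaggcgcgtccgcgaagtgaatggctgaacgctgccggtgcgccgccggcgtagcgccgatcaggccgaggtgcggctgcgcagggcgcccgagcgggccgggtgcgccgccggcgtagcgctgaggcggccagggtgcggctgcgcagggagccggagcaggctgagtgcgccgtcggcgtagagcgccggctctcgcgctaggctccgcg

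The *Mt2* window held 4 cores, *Mt1* 3 and *Slc30a1* 2. In *Mt1* the cores began at bases -23, 2 and 20 counted from the listed gene start as base 0, and in *Slc30a1* at -43 and 30. Bases outside the printed windows of *Mt1*, *Mt2* and *Slc30a1* were not searched, so cores near any other start site would be missed. Neither of the 2 windows listed for *Slc39a10* held one, which says only that these letters are not in those 300 bases. Of 27025 genes with a promoter in the table, 28.2% held at least 1 core, 8.07% at least 2, 2.27% at least 3 and 0.588% at least 4. Among the 10136 tested genes with a promoter the shares were 40.8%, 13.5%, 3.82% and 0.947%. A single core was therefore common, and a match is a description of the letters and not a binding site.

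Metallothioneins gave the largest changes among the genes past the threshold. *Mt2* stood at 67.1 and 61.7 CPM in NT, at 289 and 270 CPM in Zn and at 95.5 and 94.8 CPM in Cu. Both Zn libraries lay far above the other 4. The log2 fold change of Zn over NT was 2.12 ± 0.079 (SE), a 4.34-fold rise (adjusted p = 1.05e-05, edgeR). *Mt1* stood at 170 and 157 CPM in NT, at 510 and 457 CPM in Zn and at 224 and 235 CPM in Cu. It rose 2.96-fold, or 1.56 ± 0.082 on the log2 scale (adjusted p = 1.09e-04). *Mtf1*, which encodes the sensor, had a log2 fold change of 0.01 (95% interval -0.19 to 0.22) and did not pass the test. *Mt3* and *Mt4*, the metallothioneins of brain and stratified epithelium, had too few counts to be tested. The *Mt2* and *Mt1* calls held in all 13 other settings and without any of the 6 libraries.

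Of the zinc transporters, 1 exporter and 1 importer passed the test. *Slc30a1* stood at 17 and 15.4 CPM in NT, 33.2 and 31.1 CPM in Zn and 16.9 and 18.2 CPM in Cu. Both Zn libraries lay well above the other 4, a log2 fold change of 0.99 ± 0.11 (adjusted p = 0.0289). *Slc39a10* stood at 48.2 and 47.4 CPM in NT, 20.6 and 18.9 CPM in Zn and 49.7 and 42.8 CPM in Cu. It was the only one of the 5 to fall, by 1.27 ± 0.10 on the log2 scale, to 0.415 of the NT level (adjusted p = 0.0036). That call held without any 1 library and was lost in 1 setting, a minimum fold of 1.5. Of 6 exporters of the *Slc30a* family tested, *Slc30a1* was the only one with an unadjusted p under 0.05. Of 10 *Slc39a* importers tested, *Slc39a10* was lower and *Slc39a11* was higher at that level. *Slc39a11* stood at 11.1 and 10.4 CPM in NT and 14.7 and 12.3 CPM in Zn, and its adjusted p was 1. The remaining importers had log2 fold changes between -0.16 (*Slc39a13*) and 0.13 (*Slc39a3*). The *Slc30a1* call rested on every library: its adjusted p exceeded 0.05 when any 1 of the 6 was left out, reaching 0.241, with log2 fold changes of 0.92 to 1.07. It held in 10 of the 13 other settings.

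**Figure D2:**
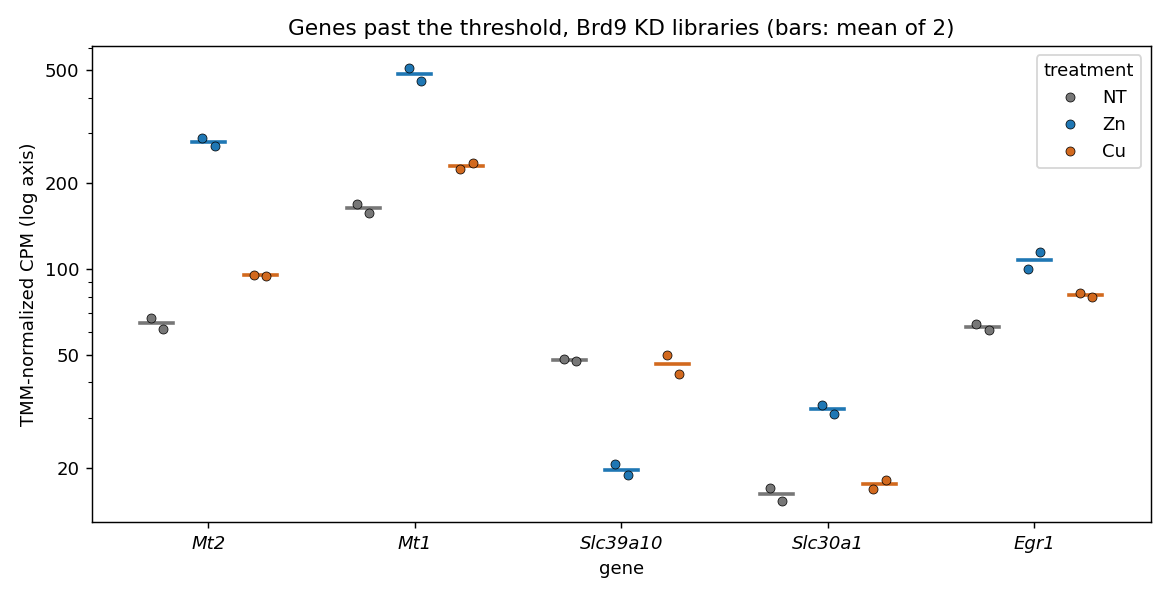
TMM-normalized CPM (log axis) of the 5 genes past the threshold in each Brd9 KD library, by treatment, with bars at the mean of 2. Zn points lie apart from NT for all 5 genes, and Cu points lie near NT for *Slc39a10* and *Slc30a1* and between NT and Zn for *Mt2*, *Mt1* and *Egr1*.

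*Egr1*, a zinc-finger transcription factor of the immediate early class, stood at 64.0 and 60.9 CPM in NT, 100 and 114 CPM in Zn and 82.4 and 80.0 CPM in Cu. Zn lay above Cu and Cu above NT in both replicates. The rise over NT was 1.72-fold, or 0.78 ± 0.088 on the log2 scale (adjusted p = 0.0289), and the call was kept in 1 of the 6 fits that left a library out, that without Zn replicate 1. It held in 10 of the 13 other settings. No other immediate early gene passed the threshold. Of 39 tested, 18 were higher and 1 was lower at an unadjusted p under 0.05, against 1.68% and 1.34% of all genes. The Zn libraries were both above both NT libraries for 32 of the 39, against 14.2% of all genes. Of the list, 35 had a positive log2 fold change and the median was 0.24.

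*Ier2*, a nuclear immediate early protein, came nearest to the threshold. It stood at 56.8 and 51.5 CPM in NT, 84.9 and 82.8 CPM in Zn and 77.5 and 75.6 CPM in Cu (Zn over NT 0.63 ± 0.082 on the log2 scale, adjusted p = 0.0774). It passed, among other settings, with DESeq2, in the fit of all 24 libraries and after a correction for GC content and length. The AP-1 genes *Fosb*, *Fos* and *Junb* had log2 fold changes of 1.20, 1.05 and 0.41. *Fosb* stood at 3.48 and 3.54 CPM in NT and 6.81 and 9.51 CPM in Zn, and *Fos* at 1.66 and 2.19 CPM in NT and 3.43 and 4.56 CPM in Zn. Both lay in the low range of expression, with Cu at 4.15 and 4.42 CPM for *Fosb* and at 2.01 and 1.80 CPM for *Fos*. *Egr2* and *Egr3*, relatives of *Egr1*, had log2 fold changes of 0.82 and 0.70. *Atf3* had 0.47, *Nr4a1* 0.63, *Myc* 0.26 and the phosphatase gene *Dusp1* 0.24. The 1 lower member was *Ccn2*, a secreted matricellular protein, at 410 and 387 CPM in NT and 323 and 354 CPM in Zn. The count of 18 lay between 12 and 19 over the left-out libraries and the other settings, the minimum fold aside. Of 28 tested members with a RefSeq promoter, 4 held a CArG box, the SRF element, or 14.3%. The share was 1.81% of all genes with a promoter and 1.62% of those tested. Many genes of this class are known SRF targets, so this share is not a result about Zn. Those 4 were *Dusp5*, *Egr2*, *Zfp36* and *Srf*. Among 14 searched members higher at an unadjusted p under 0.05, 3 held a box, against 1 of the other 14. *Egr1* and *Ier2* were not among the 28, so their promoters were not searched. The window ends 250 bases before the start, so elements farther out were not searched either.

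**Figure D3:**
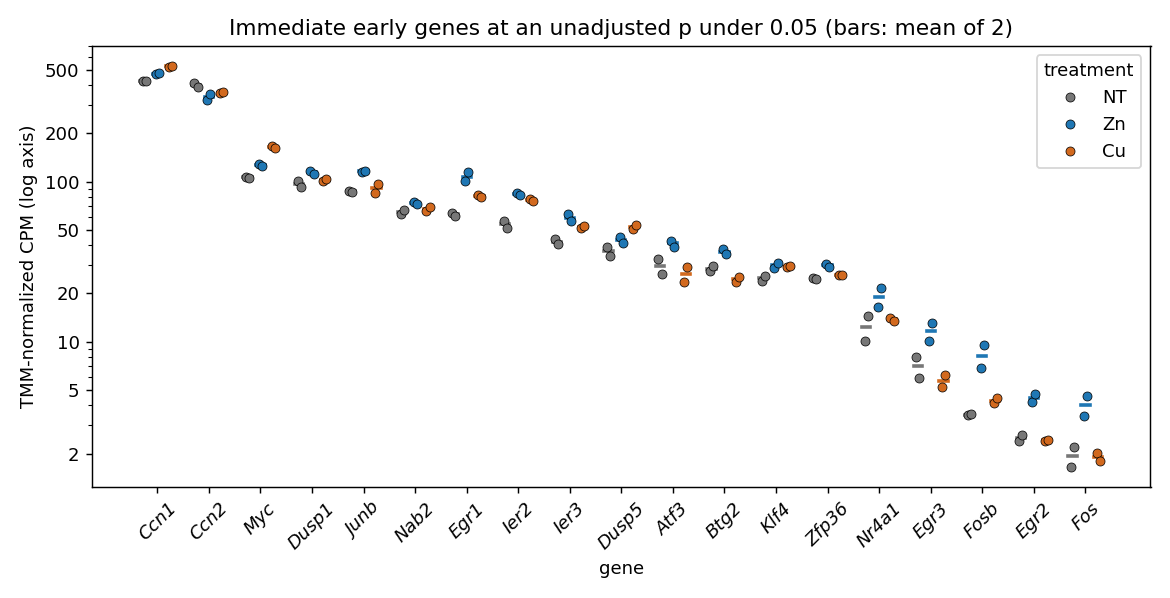
TMM-normalized CPM (log axis) of the 19 immediate early genes with an unadjusted p under 0.05, in each Brd9 KD library, ordered by NT level, with bars at the mean of 2. *Ccn2* lies lower in Zn than in NT and the other 18 lie higher, and for *Myc*, *Ccn1* and *Dusp5* the Cu libraries lie above the Zn libraries.

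NRF2 is a transcription factor that answers oxidative and electrophilic stress, and none of its targets passed the threshold with Zn. Of 29 tested, 7 were higher at an unadjusted p under 0.05 and 0 were lower, against 1.68% and 1.34% of all genes, 27 had a positive log2 fold change and the median was 0.14. *Hmox1*, the heme-degrading enzyme heme oxygenase, stood at 57.3 and 53.3 CPM in NT, 88.4 and 75.7 CPM in Zn and 90.0 and 96.0 CPM in Cu. Its log2 fold change was 0.57 ± 0.097 (adjusted p = 0.346), and DESeq2 called it. The glutathione transferase gene *Gsta4* stood at 242 and 218 CPM in NT, 343 and 276 CPM in Zn and 536 and 503 CPM in Cu. *Nqo1*, a quinone reductase, had 39.7 and 31.3 CPM in NT and 57.7 and 38.6 CPM in Zn, so its NT and Zn libraries overlapped. With Cu, 9 of the 29 genes were called higher, against 0.274% of all genes, and the list median was 0.47. *Txnrd1*, thioredoxin reductase, had 471 and 462 CPM in NT and 481 and 462 CPM in Zn against 667 and 669 CPM in Cu. The NRF2 count fell to 3 without NT replicate 2 or Zn replicate 1 and reached 15 without Zn replicate 2.

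The integrated stress response, in which ATF4 raises genes for amino acid supply, had 5 of 21 members higher and 0 lower at an unadjusted p under 0.05, against 1.68% and 1.34% of all genes, with a median of 0.10. These were *Ddit4*, *Slc7a11*, *Chac1*, *Trib3* and *Aldh1l2*, and *Slc7a11* also counts as an NRF2 target. *Trib3* stood at 56.8 and 39.3 CPM in NT and 66.6 and 69.3 CPM in Zn, with Cu at 62.4 and 75.4 CPM. Without NT replicate 2 the count was 2. In the list of copper-handling genes, *Sod3* and *Atp7b* were higher at that level among 19. *Atp7b*, a copper exporter, rested on few counts, with 0 and 0.0708 CPM in NT and 0.632 and 0.696 CPM in Zn. *Atp7a* and *Slc31a1*, the copper exporter and importer of most cells, had log2 fold changes of -0.04 (95% interval -0.26 to 0.18) and 0.03 (-0.19 to 0.25). No heat shock gene among 19 reached an unadjusted p under 0.05, and the list median was -3.3e-05. *Ndrg1*, a stress-responsive gene on the list of reported MTF1 targets, had 290 and 245 CPM in NT and 388 and 330 CPM in Zn (log2 fold change 0.42, adjusted p = 1).

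**Figure D4:**
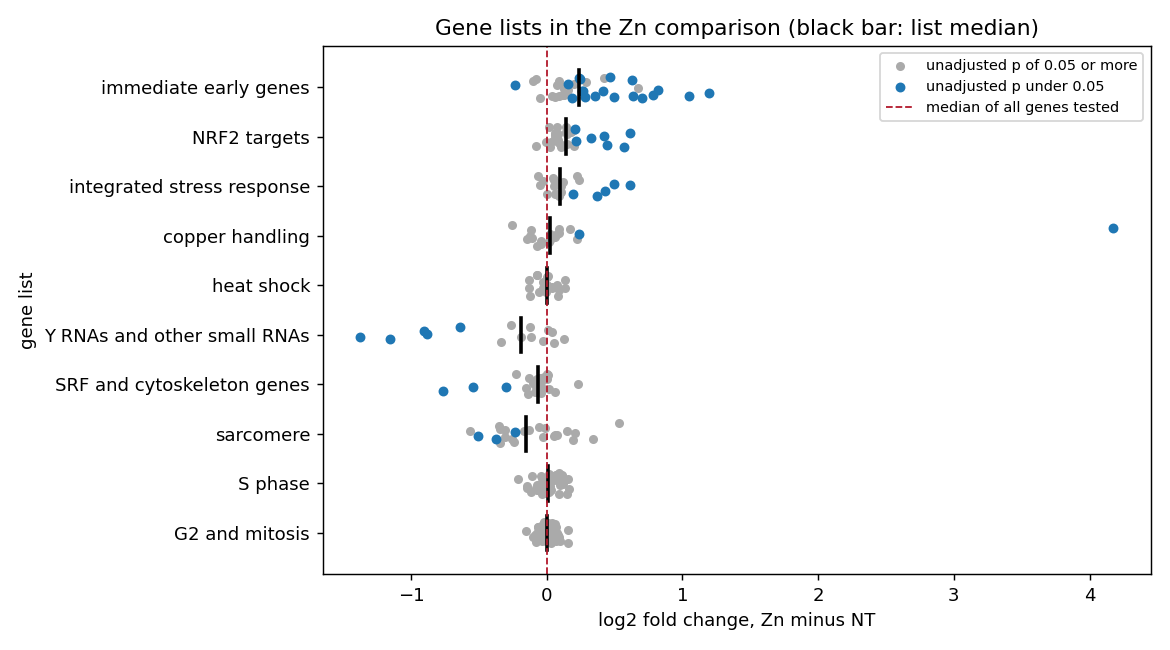
Log2 fold change of Zn over NT (x axis) for the tested members of 10 gene lists, 1 point a gene, with black bars at list medians and the dashed line at the median of all genes. Immediate early genes have a median of 0.24 and the small RNAs of -0.19. The copper-handling point at 4.17 is *Atp7b*, whose fitted fold depends on the prior count.

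No small structured RNA passed the threshold with Zn, and the Y RNAs *Rny1* and *Rny3* had the lowest fold changes of their list. Y RNAs are transcribed by RNA polymerase III and bind the Ro60 protein, and *Rny1* and *Rny3* lie close together on chromosome 6. Their sequences, from the GENCODE M21 transcripts, are printed because these genes had 2 of the 12 lowest fold changes by the rule for named genes and, at 112 and 102 bases, are far shorter than an mRNA.
Rny1, chr6:47788069-47788180, minus strand: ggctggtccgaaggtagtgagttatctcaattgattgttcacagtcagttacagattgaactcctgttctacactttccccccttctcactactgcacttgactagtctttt
Rny3, chr6:47781624-47781725, plus strand: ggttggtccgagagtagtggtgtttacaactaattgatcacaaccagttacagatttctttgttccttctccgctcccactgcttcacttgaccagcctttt

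*Rny1* stood at 41.7 and 48.5 CPM in NT, 19 and 15.5 CPM in Zn and 19.7 and 29.0 CPM in Cu. *Rny3* stood at 29.9 and 28.9 CPM in NT, 14.7 and 11.5 CPM in Zn and 11.8 and 15.5 CPM in Cu. Both metals lay below NT for each gene. Cu over NT passed in the edgeR test for *Rny3* (-1.10 on the log2 scale, adjusted p = 0.0303) and not for *Rny1* (-0.88, adjusted p = 0.0906). Zn over NT was -1.37 ± 0.19 on the log2 scale for *Rny1* (adjusted p = 0.0894) and -1.15 ± 0.16 for *Rny3* (adjusted p = 0.107), so neither passed. DESeq2 called both, and *Rny1* passed in 5 of the 12 other settings that tested it. Of 15 small RNAs tested, 5 were lower and 0 were higher at an unadjusted p under 0.05, against 1.34% and 1.68% of all genes. Of the list, 11 had a negative log2 fold change and 4 a positive one, with a median of -0.19. The others were *Rnu11* and *Rnu12*, of the minor spliceosome, and *Vaultrc5*, a vault RNA. *Rn7sk*, which restrains P-TEFb, had a log2 fold change of -0.12 and *Rpph1*, the RNA of RNase P, of -0.02. The list count was 1 in the fit of all 24 libraries and 3 with DESeq2 or without NT replicate 1. Y RNAs have near-identical copies in the genome, and their counts of uniquely aligned reads are uncertain.

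No SRF target or cytoskeleton gene passed the threshold with Zn. Of 30 tested, 3 were lower and 0 were higher at an unadjusted p under 0.05, against 1.34% and 1.68% of all genes, 24 had a negative log2 fold change and the median was -0.06. For 13 of them both Zn libraries lay below both NT libraries, against 12.5% of all genes. *Tagln*, a smooth muscle actin-binding protein, stood at 153 and 167 CPM in NT, 113 and 106 CPM in Zn and 187 and 176 CPM in Cu. Its log2 fold change was -0.54 ± 0.079 (adjusted p = 0.129), and DESeq2 called it. *Cnn1*, calponin, stood at 14.1 and 13.3 CPM in NT and 7.90 and 8.35 CPM in Zn, with Cu at 12.3 and 11.4 CPM. *Acta2*, smooth muscle actin, stood at 2284 and 2077 CPM in NT and 1925 and 1613 CPM in Zn. *Actb* and *Actg1*, the cytoplasmic actins, had log2 fold changes of -0.02 and 0.0013. Of the list, 6 of 25 members with a RefSeq promoter held a CArG box (24%), against 1.81% of all genes with a promoter and 1.62% of those tested. The list was drawn up to hold SRF targets, so this share is not a result about Zn. *Cnn1* and *Acta2* held none, and *Tagln* was not among those searched.

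No myogenic or sarcomere gene passed the threshold with Zn. Of 20 myogenic factors tested, *Myod1* and *Cdh15* were lower and 0 were higher at an unadjusted p under 0.05 (10% of the list lower, against 1.34% of all genes), and the list median was -0.0084. *Myod1*, the master regulator of the lineage, stood at 95.1 and 92.0 CPM in NT and 83.8 and 73.8 CPM in Zn (log2 fold change -0.25, adjusted p = 1). *Cdh15*, M-cadherin, stood at 316 and 303 CPM in NT and 257 and 261 CPM in Zn. Of 24 sarcomere genes, *Actc1*, *Tnnc1* and *Synpo2l* were lower at that level (12.5%) and 0 were higher, with a median of -0.15. In bulk RNA, fewer cells of a type and less RNA per cell cannot be told apart. No member of the S phase list (44 tested), the G2 and mitosis list (53), the Wnt list (33) or the mSWI/SNF list (26) reached an unadjusted p under 0.05.

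Apart from genes already described, the 12 largest rises at an unadjusted p under 0.05 included *Gsta2*, *Cdsn*, *Avil*, *Afmid* and *Fggy*. These rankings were limited to genes whose normalized counts averaged 50 or more and whose NT and Zn libraries stood apart. *Cdsn*, which encodes corneodesmosin, stood at 9.68 and 4.39 CPM in NT and 12.5 and 13.6 CPM in Zn. *Avil*, the actin-severing protein advillin, stood at 5.08 and 2.90 CPM in NT and 7.31 and 6.65 CPM in Zn. In both genes the NT libraries differed from each other by more than the Zn libraries did. The 12 largest falls included the unnamed transcripts *Gm38020*, *Gm13328*, *Gm43679*, *Gm36989*, *A530064N14Rik* and *2900052L18Rik*, and *Purg*, a purine-rich element binding protein. None of these 12 genes passed the threshold.

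Zn and Cu cells of the Brd9 KD line were then compared with each other, at the unequal doses given above. In this comparison 14 genes differed (0.0935%), 8 higher and 6 lower in Zn. *Mt2* was higher in Zn by 1.56 on the log2 scale (adjusted p = 1.20e-04), *Mt1* by 1.07 and *Slc30a1* by 0.87, and *Slc39a10* was lower by 1.22. *Egr1* differed by 0.40 and did not pass (adjusted p = 0.134). *Tagln* was lower in Zn than in Cu, with a log2 difference of -0.72 (adjusted p = 0.0142). Of the remaining 9 genes, none passed for Zn over NT, and all but *Kif21b* and *Notch3* passed for Cu over NT. *Nid1*, a basement membrane protein, had 591 and 580 CPM in NT, 613 and 570 CPM in Zn and 1135 and 1057 CPM in Cu. *Igfbp5*, which binds insulin-like growth factors, had 1412 and 1224 CPM in NT, 1352 and 1238 CPM in Zn and 731 and 733 CPM in Cu. The other 7 were *Kif21b*, *Fndc1*, *Ano5*, *Notch3*, *Prl2c3*, *Gpr137b* and *Txnrd1*. Without Cu replicate 1, the library with the high share of ribosomal RNA linked genes, 1 gene differed, and its part in the result was not tested further. The count was 7 without Zn replicate 2, and 27 and 28 without NT replicates 1 and 2.

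Whether the Zn response of Brd9 KD cells differed from that of the other lines was asked with interaction terms over all 24 libraries. Against Baf180 KD, edgeR called 0 of 16524 genes (0%), with 672 at an unadjusted p under 0.05, and no other tool was run. Against Baf250a KD, 13 genes differed (0.0787%), 1 higher and 12 lower. Against scr, 1837 genes differed (11.1%), 969 higher and 868 lower, or 720 higher and 1009 lower with RLE size factors. The 2 untreated scr libraries carried 4.75% and 1.69% of their counts in ribosomal RNA linked genes, and 1 Zn library of Baf250a KD held 495778 counts. No gene differed from scr after a correction for GC content and length, nor without scr NT replicate 2, scr Zn replicate 1 or scr Zn replicate 2. The count was 1 without Brd9 KD NT replicate 2 or Zn replicate 1, and 3029 without scr NT replicate 1. Against Baf250a KD it was 178 without that shallow library and 0 without Baf250a KD NT replicate 2, Baf250a KD Zn replicate 1, Brd9 KD NT replicate 2 or Brd9 KD Zn replicate 2. It was 1 without Baf250a KD NT replicate 1, 7 without Brd9 KD NT replicate 1 and 8 without Brd9 KD Zn replicate 1.

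On the scale of the 24-library fit, *Mt2* stood at 66.1 and 58.9 CPM in untreated Brd9 KD cells and at 289 and 257 CPM with Zn. In scr it stood at 18.2 and 20.8 CPM and at 198 and 190 CPM with Zn. The Brd9 KD level was thus above scr in both conditions, and the fold was smaller, with a log2 fold change of 2.13 against 3.31. The difference was -1.19 (adjusted p = 0.0184), a call lost without scr NT replicate 2 or either scr Zn library and after the GC and length correction. Against Baf250a KD, whose log2 fold change was 1.13, the difference was 1.00 (adjusted p = 0.0475), and against Baf180 KD it was 0.40 (adjusted p = 0.981). Of the 8 fits that left out a library, the Baf250a KD difference was called in 1, that without the shallow library. For *Mt1* the difference from scr was -0.73 (adjusted p = 0.0549), which missed the threshold. It passed in 3 of 6 other settings, namely RLE size factors, all genes with a count and the 8 libraries alone, and in 0 of 8 fits with a library left out.

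*Slc39a10* had log2 fold changes of -1.26 in Brd9 KD, -0.97 in scr, -1.26 in Baf180 KD and -1.06 in Baf250a KD, and passed in each line. No difference between Brd9 KD and another line was called for it, and the interval against scr ran from -0.63 to 0.045. *Slc30a1* had 1.00 in Brd9 KD against 1.35, 1.04 and 0.73, again with no difference called. *Egr1* had 0.79 in Brd9 KD against 0.67 in scr and 0.36 in both other lines, with no difference called. Against each line, 0 of 6 other settings and 0 of 8 fits with a library left out called the *Egr1* difference. *Ier2* had 0.64 in Brd9 KD, 0.63 in Baf180 KD, 0.68 in Baf250a KD and -0.13 in scr, and differed from scr by 0.77 (adjusted p = 0.0237), a call kept in 4 of 6 other settings and 3 of 8 fits with a library left out. Over all genes in this fit, the median log2 fold change was 0.010 in Brd9 KD, 0.0080 in Baf180 KD, -0.018 in Baf250a KD and -0.086 in scr. The scr values are therefore read against a centre below 0. The median log2 fold change of the immediate early genes was 0.25 in Brd9 KD, 0.11 in Baf180 KD, 0.12 in Baf250a KD and -0.13 in scr. Of these 39 genes, 11 differed from scr with a higher value in Brd9 KD (28.2%), where 969 of all 16524 genes did. None of the 39 differed from Baf180 KD or Baf250a KD, against 0% and 0.0787% of all genes. Since the scr comparison lost its calls in the settings named above, these differences carry the same limit.

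**Figure D5:**
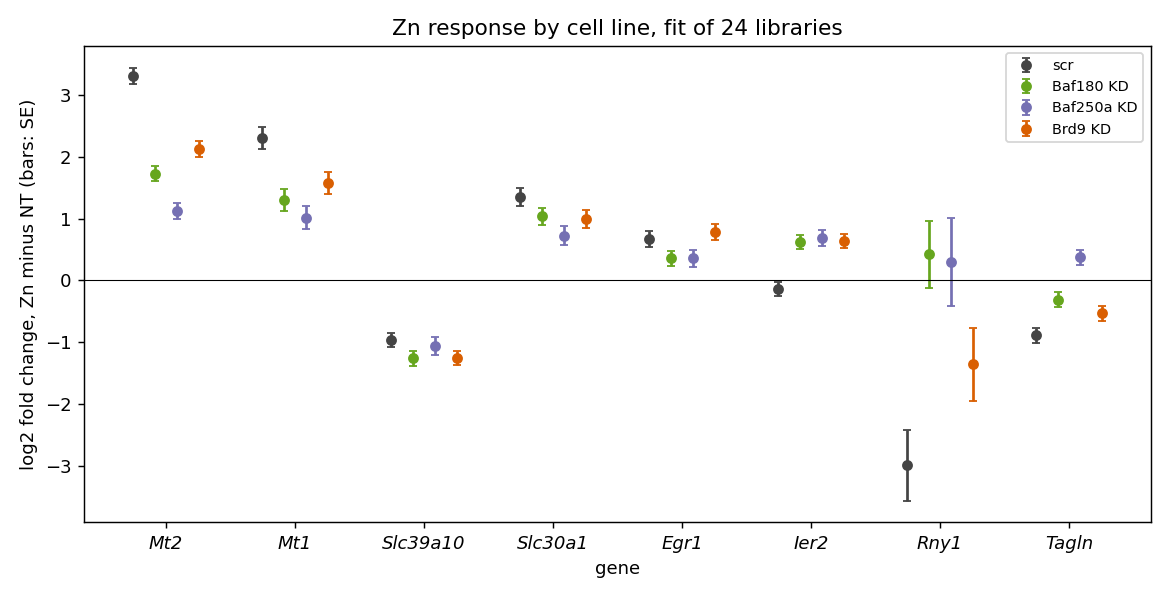
Log2 fold change of Zn over NT (y axis, bars are SE) for 8 genes in the 4 cell lines, from the fit of 24 libraries with 2 libraries per group. *Mt2* spans 1.13 to 3.31 with Brd9 KD at 2.13, *Slc39a10* lies between -1.26 and -0.97 in all lines, and *Ier2* lies below 0 in scr alone among the 4 lines.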

How the data were processed

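Total RNA depleted of ribosomal RNA was sequenced strand-specifically in 24 libraries, 2 for each of 12 conditions. The authors aligned reads to mm10 with STAR, keeping unique alignments, and deposited raw gene counts made with featureCounts. The deposited tables of the authors' own DESeq2 comparisons hold fold changes and p-values and were not used. Members and gene lists were chosen with earlier results of these data known.

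Counts of the 6 Brd9 KD libraries were filtered with filterByExpr, scaled by TMM and tested with the quasi-likelihood test of edgeR 4.0.16 in R 4.3.3, with Benjamini-Hochberg adjustment over all genes and a threshold of 0.05. CPM are TMM-normalized. Interactions were fitted over all 24 libraries. DESeq2 1.42.0 was an alternative. Of 55291 symbols, 53292 matched GENCODE M21. Each gene had 3 residual degrees of freedom, and edgeR moderated its spread with that of all genes tested. The p-values therefore rest in part on spread borrowed from other genes, and measure the spread between these libraries only. The test was checked on simulated counts. Named genes were those past the threshold, the 12 largest rises and falls whose normalized counts averaged 50 or more, with an unadjusted p under 0.05 and no overlap, list members, genes the study names and genes called with DESeq2.

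Replicate numbers were not used as pairs in the main test, and whether they mark a pairing is not known. Deviations from group means correlated at 0.287 between NT and Zn, -0.116 between NT and Cu and -0.067 between Zn and Cu. Replicates differed by 8.32 to 22.0 times the counting noise (chi-square per degree of freedom), so no library was a duplicate.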

Additional observations from a re-analysis of the deposited data

Results flagged for a closer look

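The following genes had a Zn response that differed between Brd9 KD and another line by the interaction test of edgeR over 24 libraries. All values are differences of log2 fold changes, with 2 libraries per group. *Mt2* differed from scr by -1.19 (adjusted p = 0.0184), a smaller rise in Brd9 KD, and from Baf250a KD by 1.00 (adjusted p = 0.0475), a larger one. The *Mt2* difference from scr was called in 4 of 6 other settings and 5 of 8 fits with a library left out, and that from Baf250a KD in 3 of 6 and 1 of 8.

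Against scr, the immediate early genes *Ier2* (0.77, adjusted p = 0.0237) and *Fosb* (1.13, adjusted p = 0.0442) had higher values in Brd9 KD, as did *Hmox1* (0.69, adjusted p = 0.0380) and *Wnt4*, a secreted Wnt ligand (0.86, adjusted p = 0.0316). The *Ier2* and *Hmox1* calls were each kept in 4 of 6 other settings and 3 of 8 fits with a library left out, the *Wnt4* call in 3 of 6 and 2 of 8, and the *Fosb* call in 1 of 5 and 0 of 8. *Avil* (1.26, adjusted p = 0.0403), *Afmid* (1.22, adjusted p = 0.0246) and *Fggy* (1.22, adjusted p = 0.0469) were also higher. The transcripts *Gm43679* (-1.70, adjusted p = 0.0487) and *Gm36989* (-2.70, adjusted p = 0.0249) were lower. With a library left out, these 5 calls were kept in 1 to 3 of 8 fits. Each difference also holds the scr response and is not the change within Brd9 KD. In the fit of the 6 Brd9 KD libraries, Zn over NT was 0.30 ± 0.19 for *Wnt4* and -0.62 ± 0.26 for *Gm36989*. It was 0.63 for *Ier2*, 1.20 for *Fosb*, 0.57 for *Hmox1*, 0.79 for *Avil*, 0.78 for *Afmid*, 0.77 for *Fggy* and -0.71 for *Gm43679*. None of these genes passed the threshold in that fit. *Tagln* differed from Baf250a KD by -0.91 (adjusted p = 0.0475), a call kept in 3 of 6 other settings and 1 of 8 fits with a library left out. For scale, 11.1% of all genes differed from scr, and the untreated scr libraries held more ribosomal RNA linked counts than the others compared here. Their part in these differences was not tested.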

How the results depend on the processing

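The number of genes called for Zn over NT, 5, was 10 with DESeq2, 29 with all genes of at least 1 count, 8 with genes averaging at least 1 normalized count and 2 with a minimum fold of 1.5, and 3 to 4 without 1 library. With the replicate block it was 3, *Slc30a1* and *Egr1* being lost. For Zn against Cu, 14 became 139 with DESeq2, 883 with all genes of at least 1 count, 69 after correcting for GC content and length, 1 with the minimum fold and 1 to 28 without 1 library. For the difference from scr, 1837 became 0 with that correction, 102 with counts thinned to the smallest total and 0 to 3029 without 1 library. For Baf180 KD, 0 became 34 with all genes of at least 1 count and stayed 0 without any 1 library. For Baf250a KD, 13 became 54 with RLE, 520 with all genes of at least 1 count, 0 with the replicate block, 373 with the correction, 0 when thinned, 22 with the 8 libraries compared and 0 to 178 without 1 library. The replicate block moved no other count by over 1.5 times. The *Wnt4* difference from scr, 0.86, was -0.025 when thinned. The causes were not tested. Over 36 named genes, 631 values kept their side of the threshold, 18 lost a call and 26 gained one. No called value changed sign. Values called in neither fit could change sign, as *Atp7a* did, from -0.15 to 0.062 with a library left out. With 2 libraries per group, smaller changes could not be detected.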

Other observations

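Over all genes tested, 1.68% were higher and 1.34% were lower at an unadjusted p under 0.05. Among RNA classes, the 12001 protein-coding genes tested had 222 higher and 117 lower at that level. Small nucleolar RNAs, which guide modification of ribosomal RNA, had 0 higher and 7 lower of 82, with a median log2 fold change of -0.10. Long intergenic noncoding RNAs had 1 higher and 12 lower of 281, with a median of -0.12. Across 11745 protein-coding genes the log2 fold change of Zn over NT had a Spearman correlation of 0.107 with GC content, given as a description. Of 51 replication-dependent histone genes tested, 40 had a positive log2 fold change, with a median of 0.06, and 0 reached an unadjusted p under 0.05. Of 77 oxidative phosphorylation genes, *Cox6a2*, a muscle form of a cytochrome oxidase subunit, was the only one at that level. Of 80 cytosolic ribosomal protein genes, the only one was *Rps29*.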
